A study of Homo sapiens with 2 samples.

Results

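The 8 genes HAUS1 to HAUS8 encode the subunits of augmin, and all 8 were found by symbol among the 28115 genes in the 2 deposited tables. They were chosen by membership of 1 protein complex, which was selected on the log2 ratio of HAUS4 between these libraries, so the values of that contrast are a description and carry no test. The cells were HEK293T, a human embryonic kidney cell line carrying the SV40 large T antigen. The control library came from cells given 500 nM of a non-targeting RNA named GL2, and the tRF-3004b library from cells given 500 nM of a tRF-3004b mimetic, a synthetic copy of a fragment of a transfer RNA. Both RNAs were delivered by reverse transfection with a lipid reagent 120 h before the cells were collected. Each group had 1 library, so no value below has a replicate check, and each interval covers counting error only and compares these 2 libraries, not the conditions.

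Augmin binds to the side of an existing microtubule and recruits the gamma-tubulin ring complex, so that a new microtubule branches off at a shallow angle. Dividing cells use this branching to fill the mitotic spindle with microtubules and to keep centrosomes intact. The subunits form a pair of tetramers. T-III holds HAUS1, HAUS3, HAUS4 and HAUS5, and T-II holds HAUS2, HAUS6, HAUS7 and HAUS8, with HAUS8 binding the microtubule and HAUS6 linking to the ring complex through NEDD1.

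The transfected RNAs are shown because bases 2 to 8, in capitals, are the part a small RNA uses to pair with transcripts when it is carried by an Argonaute protein.
tRF-3004b mimetic: uCAAAUCUcgguggaaccucca
GL2 control RNA: cGUACGCGgaauacuucgauu
The letters AGATTTG, which complement those 7 bases of the mimetic, were searched on the transcript strand in the longest protein-coding GENCODE transcript of each gene. They were found in HAUS5, HAUS1 and HAUS6, and each match is shown with 8 flanking bases on each side and the matching letters in capitals.
HAUS5, 3' UTR, exon 19 of 19, chr19:35623850-35623856, plus strand: aggtgtagAGATTTGtcagagct
HAUS1, coding sequence, exon 5 of 9, chr18:46122567-46122573, plus strand: aggaattcAGATTTGgaatcaag
HAUS6, coding sequence, exon 4 of 17, chr9:19093204-19093210, minus strand: attttgcaAGATTTGttgcaatg
HAUS6, coding sequence, exon 16 of 17, chr9:19058709-19058715, minus strand: aatcagtcAGATTTGttaaataa
HAUS6, coding sequence, exon 16 of 17, chr9:19058676-19058682, minus strand: tgcaagcaAGATTTGgaatgttt
Coordinates are those of GRCh38. The letters were not found in the transcript searched for HAUS4, the gene with the lowest ratio, which says only that they are not in that 1642-base sequence. For HAUS7 the transcript searched had 1593 bases, 381 of them coding, and for HAUS8 it had 3176 bases. The RefSeq transcripts that held most of their counts have 1378 and 1407 bases. Other transcripts of the 8 genes were not searched. Among 19192 genes searched, 14.3% held the letters in the 3' UTR and 11.0% in the coding sequence, beside 1 of 8 and 2 of 8 augmin genes. The letters CGCGTAC, which complement the same bases of the control RNA, were found in none of the 8 transcripts, and in 0.182% of all 3' UTRs searched.

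The libraries differed in depth by 10.8-fold, with 19609933 estimated counts for the control and 1809193 for tRF-3004b. Of 6 HEK293T markers, the control library had counts for all 6 and the tRF-3004b library for 5. Their sum went from 1770 to 1307 CPM (counts scaled to library size), or -0.44 as a log2 ratio (interval -0.50 to -0.38). VIM, the largest part of this sum, had 1447 and 979 CPM, NEFL had 97.8 and 52.9 CPM, and LHX1 had 61 and 0 counts. The other markers were higher, with LIN28B at 209.9 and 260.0 CPM and NEFM at 10.7 and 13.5 CPM. PAX2 was at 0.953 and 1.13 CPM, from 19 and 2 counts. The sum of the 4 proliferation markers was 2289 CPM in the control and 2109 CPM after tRF-3004b, or -0.12 as a log2 ratio (interval -0.17 to -0.07). Summed markers of fibroblasts went from 36.1 to 116 CPM, with 5 of 7 genes at least 2-fold higher. Epithelial markers went from 10.5 to 34.9 CPM, with 2 of 5 at least 2-fold higher and KRT5 at 0 in both libraries. Blood markers went from 3.26 to 29.8 CPM, with 5 of 5 at least 2-fold higher. The part of other cells in the augmin values was not tested. In these bulk samples, fewer cells of a type and less RNA per cell cannot be told apart.

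Transcripts of HAUS4 and HAUS5, both of the T-III tetramer, were lower in the tRF-3004b library, HAUS7 was higher, and the other 5 genes lay within 2-fold of the control library. All 8 genes passed the filter of a mean CPM of at least 1. Their median log2 ratio of tRF-3004b over control was 0.11, beside -0.11 over all 13750 genes that passed it. With gene TPM and 1 added these medians were -0.28 and -0.38, so the sign of the augmin median depended on the scale. HAUS4 and HAUS5 were the 2 of 8 genes at least 2-fold lower, where 14.2% of all genes were, and 8.59% of the 8712 whose mean CPM was 10 or more. HAUS7 was the 1 of 8 at least 2-fold higher, where 12.1% of all genes were, and 6.11% of those 8712. Of all genes past 2-fold, 46.1% were higher, and 21.8% with gene TPM and 1 added. Since the augmin genes were picked with the HAUS4 ratio known, nothing about the complex is read from these counts.

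**Figure D1:**
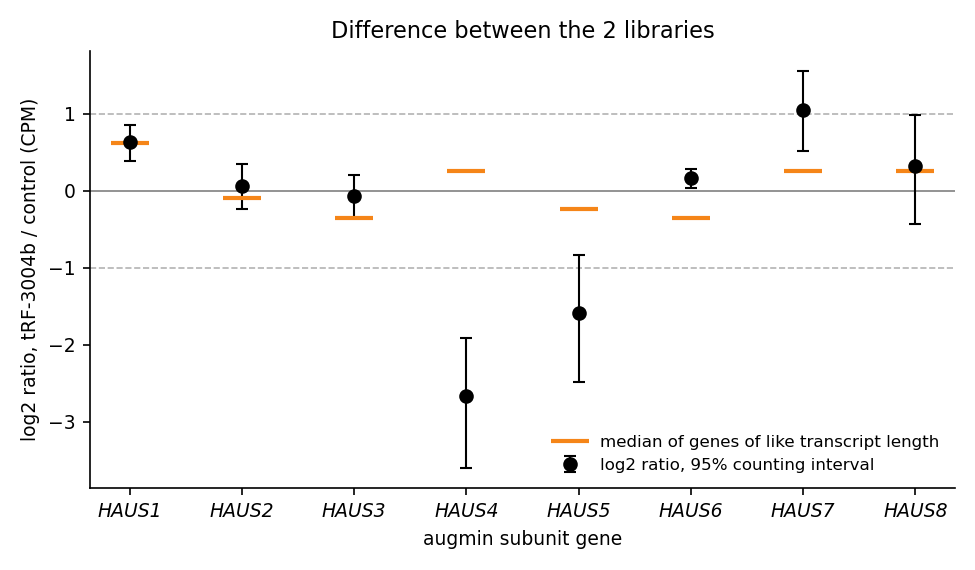
Log2 ratio of CPM, tRF-3004b library over control library, for each augmin gene. Points are single values with 95% counting intervals, orange bars are the median of all measured genes in the same of 10 bins of transcript length, and dashed lines mark 2-fold. HAUS4 at -2.67 and HAUS5 at -1.59 lie below the lower line, and the others lie between -0.07 and 1.05.

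HAUS4 (Entrez gene 54930, chromosome 14, 22946228 to 22957090, GRCh38) encodes a T-III subunit. The control library held 939 estimated counts of HAUS4. The tRF-3004b library held 13, where the control level would have given 83.7. In CPM these were 47.1 and 7.32, a 6.38-fold lower level. The log2 ratio was -2.67 (interval -3.60 to -1.91), and 300th from the lowest of 13750 genes. In TPM, which scales for transcript length, HAUS4 went from 72.1 (counting interval 67.6 to 76.9) to 8.89 (interval 4.73 to 15.2). All measured genes were placed in 10 bins of transcript length. The median log2 ratio fell from bin to bin, from 0.62 for the shortest transcripts to -0.44 for the longest. Genes of the same bin as HAUS4 had a median log2 ratio of 0.26, and relative to it HAUS4 stood at -2.94.

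HAUS5 (Entrez gene 23354, chromosome 19, 35612735 to 35625355), the other low T-III subunit, had 476 counts in the control. It had 14 in the tRF-3004b library, where the control level would have given 42.4. The CPM values were 23.9 and 7.88, a 3.01-fold lower level with a log2 ratio of -1.59 (interval -2.48 to -0.84). Its TPM was 12.6 (interval 11.5 to 13.8) in the control and 3.29 (interval 1.80 to 5.52) after tRF-3004b. HAUS5 was thus the least abundant augmin transcript in both libraries. HAUS5 is the augmin gene whose 3' UTR holds the letters AGATTTG shown above, in its last exon. The match was not followed by an A. The letters were in the 3' UTR of 14.3% of the genes searched. They were also in the coding sequences of HAUS1 and HAUS6, which were not lower in CPM, and not in the transcript searched for HAUS4. Any part of the match in the level of HAUS5 was not tested.

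The remaining T-III genes, HAUS1 and HAUS3, were not lower beyond counting error in CPM. HAUS1 (chromosome 18, 46104385 to 46128333), first described as a coiled-coil protein of the spindle, had 1246 and 172 counts, or 62.5 and 96.8 CPM. Its log2 ratio was 0.63 (interval 0.39 to 0.86). HAUS1 is the shortest of the augmin transcripts, at 1073 bases averaged over its isoforms by abundance. The genes of the shortest length bin had a median of 0.62, which leaves HAUS1 at 0.01 relative to them. HAUS3 (chromosome 4, 2228349 to 2242121) had 1438 and 122 counts, or 72.1 and 68.7 CPM, with a log2 ratio of -0.07 (interval -0.35 to 0.20). In TPM HAUS3 had 28.8 and 21.9, with intervals that did not overlap. With gene TPM and 1 added its ratio was -0.38, and so was the median of all genes.

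Within the T-II tetramer, HAUS6 (chromosome 9, 19053141 to 19102904) was the most deeply counted augmin gene. It had 5802 and 577 counts, or 291 and 325 CPM, with a log2 ratio of 0.16 (interval 0.03 to 0.28), the narrowest interval of the 8. On the TPM scale its values were 104 and 91.8, so the sign of its difference depended on the scale. HAUS2 (chromosome 15, 42548838 to 42569994), the partner of HAUS8 in T-II, had 1149 and 107 counts, or 57.6 and 60.2 CPM. Its log2 ratio was 0.06 (interval -0.24 to 0.35), and in TPM it had 50.3 and 37.4, again with the other sign.

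HAUS7 and HAUS8 had the fewest control counts. HAUS7 (chromosome X, 153447668 to 153495465), which was first named for its interaction with the deubiquitinase UCHL5, had 205 and 38 counts, or 10.3 and 21.4 CPM. Its log2 ratio was 1.05 (interval 0.52 to 1.56), so the interval reached well below 2-fold. With gene TPM and 1 added it was 0.76 and relative to its length bin it was 0.79. HAUS8 (chromosome 19, 17049729 to 17075533), the microtubule-binding subunit, had 180 and 20 counts, or 9.03 and 11.3 CPM, with a log2 ratio of 0.32 (interval -0.43 to 0.99). For HAUS8 these counts cannot separate an equal level from a difference of almost 2-fold.

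With gene TPM and 1 added, HAUS2, HAUS6 and HAUS8 of the T-II tetramer had ratios of -0.42, -0.18 and -0.02, and the median of all genes was -0.38. The counting intervals of the log2 ratios of HAUS4 and HAUS5 overlapped each other, and neither overlapped that of any of the other 6 genes.

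The order of the levels differed between the libraries mainly at HAUS4. In the control library, from the highest TPM to the lowest, the order was HAUS1 (148), HAUS6 (104), HAUS4 (72.1), HAUS2 (50.3), HAUS3 (28.8), HAUS7 (17.4), HAUS8 (15.7) and HAUS5 (12.6). Every neighbouring pair in this order differed beyond counting error except HAUS7 and HAUS8, whose ratio was 1.11 (interval 0.904 to 1.36). In the tRF-3004b library the order was HAUS1 (181), HAUS6 (91.8), HAUS2 (37.4), HAUS7 (30.2), HAUS3 (21.9), HAUS8 (15.5), HAUS4 (8.89) and HAUS5 (3.29). There the neighbours from HAUS2 down to HAUS4 could not be separated by their counts, and HAUS8 over HAUS4 had a ratio of 1.75 (interval 0.827 to 3.82). HAUS4 ranked 3rd of 8 in the control and 7th of 8 after tRF-3004b. Its share of the summed TPM of the complex was 16.1% and 2.28%. The most abundant subunit exceeded the least abundant by 11.7-fold in the control and 55.1-fold after tRF-3004b. Without HAUS4 and HAUS5, these ratios were 9.41 and 11.7, and the summed TPM of the other 6 genes was 364 and 378.

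**Figure D2:**
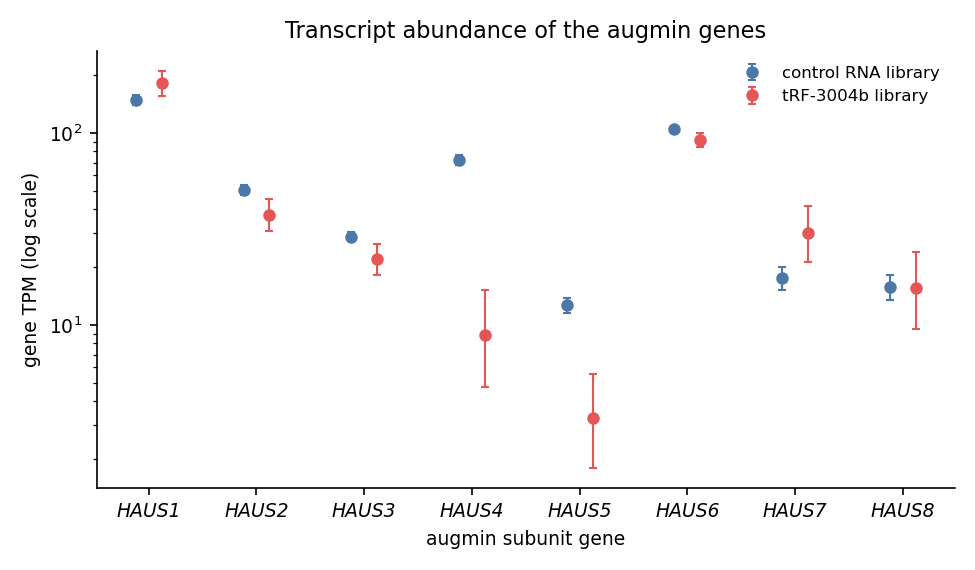
Gene TPM on a log scale for each augmin gene in the control library (blue) and the tRF-3004b library (red), with 95% counting intervals. HAUS4 lies at 72.1 and 8.89 and HAUS5 at 12.6 and 3.29, and the intervals of HAUS1 and of HAUS8 overlap between the libraries. Those of HAUS2, HAUS3 and HAUS6 lie apart and lower after tRF-3004b, and those of HAUS7 apart and higher. With gene TPM and 1 added, the median log2 ratio of all measured genes was -0.38.

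Isoforms were read from the RefSeq transcripts of each gene, for which kallisto divides the reads that several transcripts could have given. A value of 0 for an isoform can therefore mean that its reads were assigned to another one, and the intervals and limits below do not hold that uncertainty. Of the 3 HAUS4 transcripts, NM_017815 had 789 and 13 counts, NM_001166269 had 126 and 0, and NM_001166270 had 25 and 0. NM_017815 held 84.0% (Clopper-Pearson interval 81.5 to 86.3) of the control counts of HAUS4 and all 13 of the tRF-3004b counts, with an interval from 75.3% to 100%. At the control share, the other HAUS4 isoforms would have had 1.74 and 0.341 of the 13 counts, so no difference in their share was detectable at this depth. HAUS5 had a single transcript, NM_015302, in the tables.

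For HAUS3 and HAUS2 the estimated isoform shares differed between the libraries, although the gene totals did not differ beyond counting error in CPM. In TPM both totals were lower after tRF-3004b, with intervals that did not overlap. With gene TPM and 1 added, HAUS3 was at -0.38 and HAUS2 at -0.42, near the median of all genes at -0.38. The HAUS3 transcript NM_001303143 held 385 of 1438 counts in the control library, or 26.8% (interval 24.5 to 29.1). It held 0 of 122 in the tRF-3004b library, for which the floor of 3 counts allows a share of up to 2.46% and the Clopper-Pearson interval up to 2.98%, and where the control share would have given 32.7 counts. For HAUS2, NM_001130447 held 181 of 1149 counts in the control library and 0 of 107 in the tRF-3004b library, where the control share would have given 16.8. NM_001323631 went the other way. It held 3.67% (interval 2.65 to 4.91) of the control counts and 35.5% (interval 26.5 to 45.4) of the tRF-3004b counts of HAUS2, or 42 and 38 counts. The main HAUS2 transcript, NM_018097, held 69.8% and 56.7%, and the short NM_001323629, of 822 bases, held 10.8% and 7.88%.

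In the other genes 1 transcript led in both libraries. NM_138443 held 96.4% of the control counts of HAUS1, and the non-coding NR_026978 held 45 and 0 counts. NM_017518 held 86.1% of the control counts of HAUS7 and all 38 of the tRF-3004b counts, and the non-coding NR_073156 held 29 and 0. Without the non-coding entry, the log2 ratio of HAUS7 was 1.29. HAUS6 was assigned to NM_017645 alone, and NM_033417 held 94.9% of the control counts of HAUS8 and all 20 of the tRF-3004b counts.

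**Figure D3:**
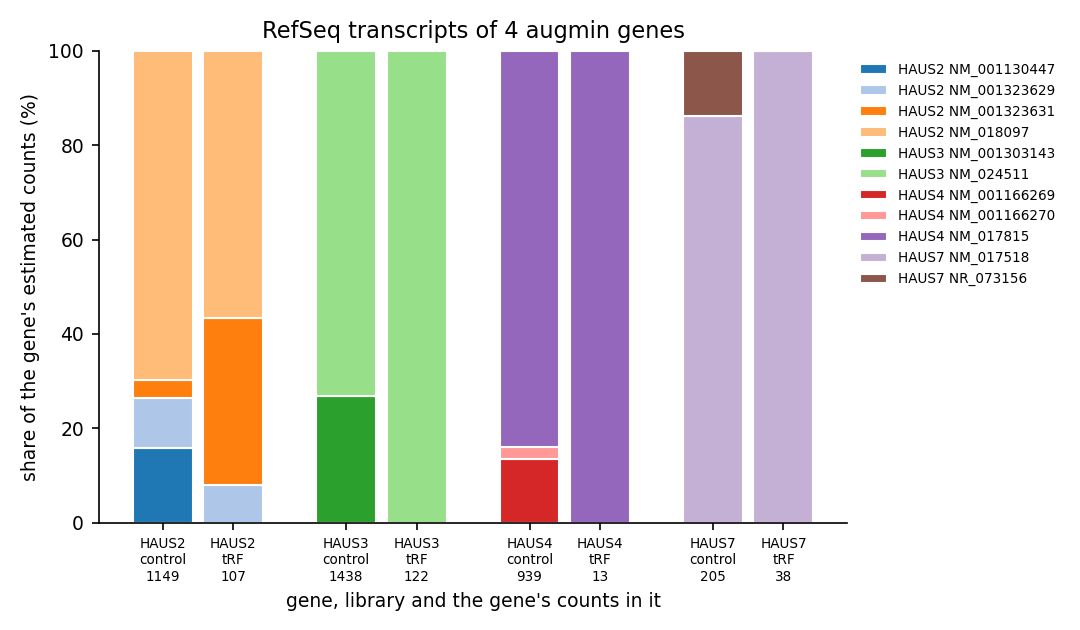
Share of each gene's estimated counts (%) held by its RefSeq transcripts with at least 10 counts in either library, for HAUS2, HAUS3, HAUS4 and HAUS7, with the gene's total counts under each bar. In the tRF-3004b library HAUS3, HAUS4 and HAUS7 are each assigned to 1 transcript, and HAUS4 rests on 13 counts.

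Some augmin genes share sequence with other genes. HAUS3 shares 6.06% of its 31-base words with POLN, a DNA polymerase gene whose locus covers HAUS3. POLN had 146 and 22 counts, and the 2 genes summed had a log2 ratio of 0.03. HAUS7 shares 22.7% of its words with the exonuclease gene TREX2, and the sum over both kept the ratio of 1.05. HAUS1 shares up to 16.7%, and HAUS6 up to 16.8%, with pseudogenes that are not analysed here. HAUS4 shares 46.9% with AL132780.3, a GENCODE entry that is not analysed here. The non-coding gene PRMT5-DT, which overlaps HAUS4, had 20 and 0 counts. The strand setting of the counting is not given in the sources used here, so reads of HAUS4 and of PRMT5-DT may not have been told apart. The 20 counts of PRMT5-DT are few beside the 939 of HAUS4.

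Around HAUS4, the nearest measured gene above it shared its low value, and the nearest below it did not. AJUBA, a LIM-domain adaptor of cell junctions and Hippo signalling (chromosome 14, 22971177 to 22982551), starts 14087 bases above HAUS4. It had 573 and 7 counts and a log2 ratio of -2.84 (interval -4.19 to -1.81). On the other side, the arginine methyltransferase PRMT5, 16852 bases away, had 1631 and 228 counts and a ratio of 0.65 (interval 0.44 to 0.85). RBM23, an RNA-binding protein gene, was at 0.05 and the receptor gene LRP10 at 0.16. Beyond AJUBA, C14orf93 was at 0.03 and the proteasome subunit PSMB5 at 0.55 (interval 0.29 to 0.80). The 19 measured genes reaching within 500 kb on each side of HAUS4 had a median of 0.37. Of these, 3 were at least 2-fold lower (15.8%), AJUBA among them, and 2 at least 2-fold higher (10.5%). Over all measured genes these shares were 14.2% and 12.1%.

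Few genes of a like control level had a ratio as low as that of HAUS4. The complex was selected on this ratio, so the place of HAUS4 among them is a description and carries no test. The comparison took 2331 genes whose mean CPM was 10 or more and whose control CPM lay within 1.5-fold of that of HAUS4. Of these, 264 were at least 2-fold lower and 2 lay at or below HAUS4. Those 2 were the sugar transporter SLC2A12, at -3.50 with 651 and 5 counts, and the pseudogene SMG1P3, with 893 and 0 counts. By the smallest difference in log2 ratio over these 2 libraries, the genes of this pool most like HAUS4 were PPIP5K1 at -2.49, DIP2C at -2.43, PCK2 at -2.41, GALNT12 at -2.39 and PATJ at -2.38. PPIP5K1 is an inositol pyrophosphate kinase, PCK2 a mitochondrial gluconeogenic enzyme, GALNT12 a glycosyltransferase and PATJ a polarity protein. Each had between 11 and 18 counts in the tRF-3004b library.

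**Figure D4:**
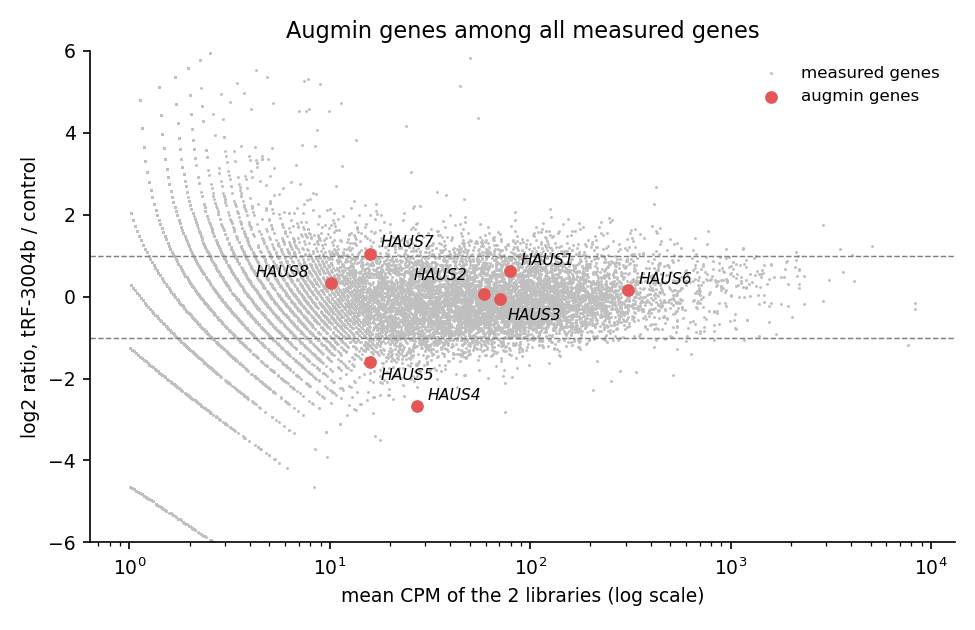
Log2 ratio of CPM, tRF-3004b over control, against the mean CPM of both libraries (log scale) for all 13750 measured genes (grey) and the augmin genes (red), with dashed lines at 2-fold. The 39 genes beyond a log2 ratio of 6 in either direction are not drawn. HAUS4 lies at the lower edge of the genes of like abundance, and HAUS6 lies among the well-counted genes near 0.

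The gamma-tubulin ring complex, which augmin recruits, had no member past 2-fold. Of all measured genes, 14.2% were at least 2-fold lower and 12.1% at least 2-fold higher. With a mean CPM of 10 or more these shares were 8.59% and 6.11%. All 11 genes of the ring complex were measured, with a median log2 ratio of -0.14 beside -0.11 over all genes. TUBG1, gamma-tubulin itself, had 574 and 64 counts and was at 0.32 (interval -0.07 to 0.70). The ring subunit TUBGCP4 was at 0.31 (interval 0.05 to 0.55) and MZT2B at 0.25. The lowest were MZT2A at -0.57 (interval -2.06 to 0.59), with 101 and 6 counts, TUBGCP5 at -0.39 and TUBGCP2 at -0.38. MZT2A and MZT2B are closely related genes, as are TUBG1 and TUBG2. The sequence shared within each pair was not measured here, so the split of counts within each pair may be uncertain. NEDD1, which binds augmin through HAUS6, is a member of this list.

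Of 18 genes of spindle microtubule nucleation and assembly, none was past 2-fold, where 14.2% of all genes were lower and 12.1% higher. With a mean CPM of 10 or more, as 17 of the 18 had, these shares were 8.59% and 6.11%. The median of the 18 was 0.08. With gene TPM and 1 added this median was -0.26, below 0, while that of all genes was -0.38. RCC1, which charges the GTPase RAN at chromosomes, was highest at 0.92 (interval 0.72 to 1.11). RAN followed at 0.64 and DLGAP5, a spindle-stabilising protein, at 0.46. NUMA1, which focuses spindle poles, was lowest with 591 and 27 counts, at -0.96 (interval -1.58 to -0.41). EML3, which recruits augmin to microtubules, had 107 and 5 counts and was at -0.91 (interval -2.58 to 0.34), and the microtubule polymerase CKAP5 was at -0.54.

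Among 15 genes of the pericentriolar material and centriole duplication, 1 was at least 2-fold higher and none at least 2-fold lower, with a median of -0.33. The shares over all genes were 12.1% and 14.2%. With a mean CPM of 10 or more, as all 15 had, these shares were 6.11% and 8.59%. AKAP9, a large scaffold that anchors gamma-tubulin complexes, had 714 and 235 counts, or 35.8 and 132 CPM, with a ratio of 1.88 (interval 1.67 to 2.10). The centriole genes CEP135 and SASS6 followed at 0.40 and 0.38. The lowest were CDK5RAP2, which activates the ring complex, at -0.98 (interval -1.24 to -0.72), CEP72 at -0.90 (interval -1.73 to -0.19) and PCNT, the pericentrin scaffold, at -0.73. With the median of their length bin subtracted their median was -0.09.

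**Figure D5:**
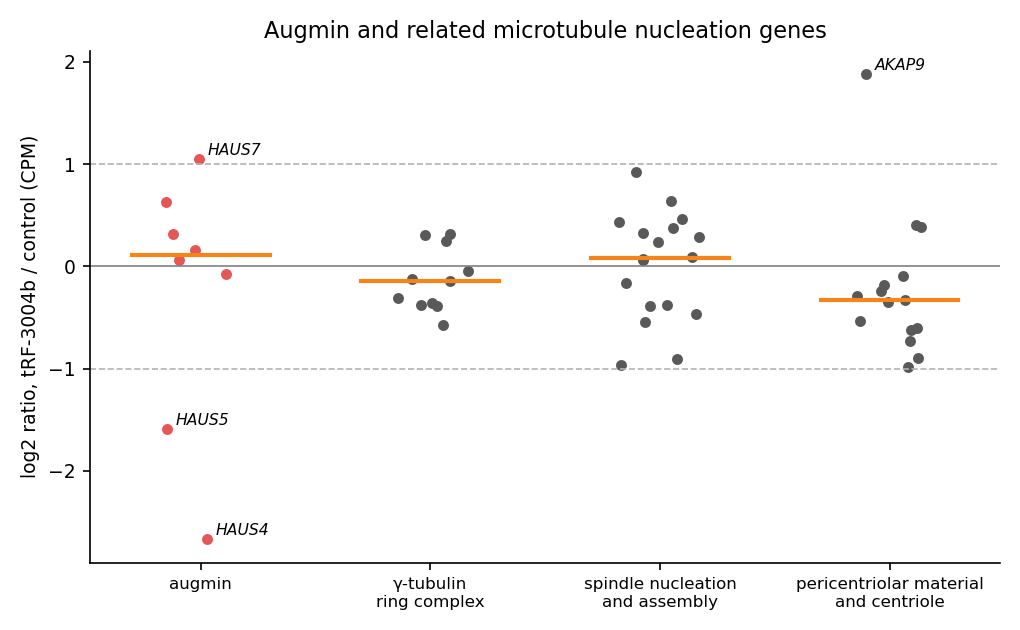
Log2 ratio of CPM, tRF-3004b over control, for the 8 augmin genes (red) and the measured genes of 3 related groups (grey), each point a gene, with orange bars at the group medians and dashed lines at 2-fold. HAUS4 and HAUS5 lie below the lower line, and HAUS7 and AKAP9 above the upper one.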

How the data were processed

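Poly-A RNA of 2 HEK293T libraries was sequenced. Kallisto 0.46.1 and build GRCh38 are named per the submitters' processing notes. The authors deposited estimated counts and TPM for 70866 RefSeq transcripts, per the file headers. The annotation release and strand setting are not stated.

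Counts and TPM were summed per gene with the RefSeq gene table (70245 transcripts) and GENCODE release 29 (309 transcripts, HAUS7's NM_017518 among them). The 312 unnamed transcripts, with 0.0608% and 0.0617% of the counts, were left out. Gene counts were rounded and scaled with TMM factors of edgeR 4.0.16 (1.02 for the control library, 0.983 for the tRF-3004b library). The log2 ratio has 0.5 counts added after both libraries are brought to the same size. Its 95% interval is exact (Clopper-Pearson, conditional on the summed count), and intervals of TPM are exact Poisson intervals. They cover counting error only, since without molecular identifiers reads do not stand for separate molecules. No test was run, since 1 library per group leaves no spread. The interval calculation was run on simulated Poisson counts. Those lack read assignment and spread between replicates, so the run checked the calculation only. Measured means a mean CPM of at least 1.

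The members, the gene lists, the search letters and the rule for named genes were chosen with earlier results of these data known. The rule takes the augmin genes and their isoforms with at least 10 counts, the 3 highest and 3 lowest genes of each list, measured genes overlapping an augmin gene, the 3 nearest on each side of HAUS4, and the 5 most like it. The minimum of 5% shared words, the tetramers, SLC2A12, SMG1P3, NEDD1 and PRMT5-DT were chosen after values were seen. One HEK293T marker is not reported here. Python 3.11.15 and R 4.3.3 were used.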

Additional observations from a re-analysis of the deposited data

How the results depend on the processing

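HAUS4 stayed at least 2-fold lower under all 6 alternatives run for it, from -2.94 to -2.55, and HAUS5 under all 6, from -1.67 to -1.35. Both rest on under 15 counts in the tRF-3004b library, and the counting interval of HAUS5 reached to -0.84, less than 2-fold. HAUS7 lay between 0.76 and 1.29 and is a borderline call. The number of augmin genes at least 2-fold higher was 0 with gene TPM and 1 added, with a pseudocount of 5 and with the length median subtracted. With gene TPM and 1 added, HAUS1, HAUS2, HAUS3 and HAUS6 were at 0.29, -0.42, -0.38 and -0.18, and the median of all genes was -0.38 against -0.11 with CPM. With the length median subtracted, HAUS1, HAUS3 and HAUS6 were at 0.01, 0.28 and 0.51. The cause of these shifts was not tested. For the spindle list, 1 gene was at least 2-fold lower with total counts and with gene TPM, and 1 at least 2-fold higher with the length median subtracted. For the centriole list the number lower was 1 with total counts, 1 with gene TPM and 2 with NM_ transcripts only, and for the ring complex 1 with the length median subtracted. Of all genes, 1669 were at least 2-fold higher and 1951 lower, beside 679 higher and 2435 lower with gene TPM. With a mean CPM of at least 10 these were 532 and 748 of 8712 genes, and with no filter beyond 1 count 3073 and 5166 of 19944. Using total counts, DESeq2 1.42.0 size factors or summing HAUS3 with POLN changed no augmin call. Shares of HAUS2 isoforms depended on the unit, as NM_001323629 held 10.8% by counts and 39.9% by TPM in the control library. No paired analysis was possible because each group had 1 library.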
